A study of Mus musculus with 9 samples.

Results

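The mRNAs of 9 enzymes of the methionine cycle and its one-carbon branches, Gnmt, Mat1a, Ahcy, Bhmt, Bhmt2, Cbs, Cth, Pemt and Shmt1, were followed in the livers of mice on a high-fat diet. The genes were chosen by name, with earlier results of these data known. They are 9 of the 23337 genes in the table of read counts. All 9 were among the 13141 genes with enough reads to be tested. Livers came from 9 C57BL/6 mice that began the diet at 6 to 8 weeks of age and stayed on it for 16 weeks, so every group shares the diet. The series' title and design concern protease-activated receptor 2 (PAR2, encoded by F2rl1), a cell-surface receptor that is switched on when a protease cleaves it. WT mice carried floxed but intact PAR2 alleles (PAR2fl/fl), PAR2dHep mice had PAR2 deleted in hepatocytes, and the third group carries the label of a whole-body PAR2 knockout (PAR2 KO). There were 3 mice in each group. The Cre driver of PAR2dHep, the line behind the whole-body knockout and the sex of the mice were not given in the sources used here.

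In the methionine cycle, methionine is turned into S-adenosylmethionine (SAM), the methyl donor of most methylation reactions. Once its methyl group has been passed on, SAM becomes S-adenosylhomocysteine and then homocysteine, which is either remethylated to methionine or drawn off through cystathionine towards cysteine, taurine and glutathione. The liver is the main site of this cycle, and loss of Mat1a or of Gnmt is known to cause fatty liver in mice. MAT1A makes SAM in adult hepatocytes. GNMT and PEMT spend it, the first on glycine to give sarcosine and the second on phosphatidylethanolamine to give phosphatidylcholine. AHCY splits S-adenosylhomocysteine. BHMT and BHMT2 remethylate homocysteine, BHMT with betaine as the donor. CBS and CTH form and cleave cystathionine, and SHMT1 passes a carbon from serine to folate in the cytosol.

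In mm10, the build of the count table, Gnmt lies at chr17:46725664-46729165 and Cbs at chr17:31612644-31637141. Mat1a lies at chr14:41105381-41124412 and is the only member on the plus strand. Ahcy spans chr2:155059312-155074497 and Cth spans chr3:157894248-157925063. Pemt (chr11:59970617-60036839) and Shmt1 (chr11:60788897-60811265) share a chromosome. Bhmt (chr13:93616891-93637758) and Bhmt2 (chr13:93656097-93674302) are neighbours, and their table starts lie 1.89 and 1.86 Mb from that of F2rl1 (chr13:95511730-95525240), the gene the study targeted. In the table's gene models no member overlaps another gene on its own strand.

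The RefSeq promoter table (GRCm38.p6) held 8 promoters for 7 of the 9 members, without Mat1a and Cth. The 250 bases before the start site are printed for 4 members on the minus strand, written 5′ to 3′ as each gene reads. Gnmt (chr17:46729166-46729415) and Ahcy (chr2:155074498-155074747) are shown because they had the largest rises in PAR2dHep. Bhmt (chr13:93637759-93638008) and Bhmt2 (chr13:93674303-93674552) are shown because these adjacent relatives had unlike levels and spreads. Capitals mark the nuclear receptor core element AGGTCA, which reads TGACCT on the opposite strand, and in Bhmt also the run CAAAGGTCA that contains it.
Gnmt: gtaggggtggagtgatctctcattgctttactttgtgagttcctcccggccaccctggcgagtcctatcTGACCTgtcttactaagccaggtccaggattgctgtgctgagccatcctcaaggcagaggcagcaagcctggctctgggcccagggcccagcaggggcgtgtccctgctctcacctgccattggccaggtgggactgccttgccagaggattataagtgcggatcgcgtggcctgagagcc
Ahcy: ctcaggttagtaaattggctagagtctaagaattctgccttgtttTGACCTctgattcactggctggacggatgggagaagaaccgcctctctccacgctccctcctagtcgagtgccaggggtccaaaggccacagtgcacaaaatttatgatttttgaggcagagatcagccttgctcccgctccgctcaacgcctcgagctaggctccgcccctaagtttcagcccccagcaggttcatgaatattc
Bhmt: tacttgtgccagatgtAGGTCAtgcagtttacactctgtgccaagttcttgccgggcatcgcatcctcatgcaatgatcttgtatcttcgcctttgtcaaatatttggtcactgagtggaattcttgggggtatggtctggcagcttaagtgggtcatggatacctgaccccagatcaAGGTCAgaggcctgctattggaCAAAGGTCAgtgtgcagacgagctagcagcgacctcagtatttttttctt
Bhmt2: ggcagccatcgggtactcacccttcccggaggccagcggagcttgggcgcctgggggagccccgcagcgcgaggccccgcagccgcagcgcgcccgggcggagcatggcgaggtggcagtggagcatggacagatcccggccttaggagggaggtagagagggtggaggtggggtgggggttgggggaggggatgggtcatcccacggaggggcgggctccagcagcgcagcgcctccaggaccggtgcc

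Both strands of the 8 promoters were searched for 5 motifs: the HNF4A motif CAAAGTCCA, found in 0.387% of the 32536 promoters of the table, the C/EBP motif TTGCGNAA (0.676%), the ATF4 and C/EBP composite TGATGNAA (3.4%), the NRF2 motif TGACNNNGC (10.2%) and the HNF1 motif GTTAATNAT (0.744%). None of these letters occurred in any of the 8 windows. AGGTCA and CAAAGGTCA were added after the promoters had been seen. The first occurred in 14% of all promoters and in those of Gnmt (first base at -181), Ahcy (-205) and Bhmt (-234, -72 and -47), counted from the start site. The longer run occurred in 0.43% of all promoters and, among the members, in Bhmt at -50, where it overlaps the element at -47. These matches describe letters in a window and nothing about binding.

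Between 18683660 and 30509242 reads were assigned to genes in a library. Counts of F2rl1 were 17, 27 and 28 in WT, 2, 8 and 0 in PAR2dHep, and 71, 103 and 76 where the label is PAR2 KO. The targeted gene was therefore higher, not lower, in the libraries labelled PAR2 KO than in WT (log2 fold change 2.22, SE 0.51, adjusted p = 0.00735 by the quasi-likelihood test of edgeR), and these libraries are named by their label throughout. Counts were per whole gene, so reads from exons left in place by a deletion could not be told from intact transcripts. Hepatocyte markers summed to 102398 to 107020 reads per 1e+06 (CPM) in WT. The sums were 107743 to 152526 CPM in PAR2dHep and 108827 to 121145 CPM in the libraries labelled PAR2 KO, all above WT. Alb made up most of each sum and overlapped between the groups. Apoa1, Serpina1a, Ahsg and Fgb were above WT in both other groups, and Apob was below it. Ttr was above WT only in the libraries labelled PAR2 KO. The 12 exocrine pancreas markers summed to 468 CPM in WT replicate 1 and 1805 CPM in PAR2dHep replicate 2. Elsewhere they summed to 12.5 to 84.8 CPM, mostly Cela1. In WT replicate 1 and PAR2dHep replicate 2 Pnlip was the highest of them (87.0 and 269 CPM), with Cela1 at 52.8 and 236 CPM. The 9 skeletal muscle markers reached 566 CPM in PAR2dHep replicate 2 against 0.852 to 50.2 CPM elsewhere. Among 9 monocyte and macrophage markers in the table, the sum was 313 to 377 CPM in WT, 165 to 281 CPM in PAR2dHep and 72.1 to 133 CPM in the libraries labelled PAR2 KO, and 10 stellate cell and fibroblast markers gave 555 to 632, 251 to 419 and 219 to 302 CPM. For 7 endothelial markers the sums were 280 to 312, 180 to 254 and 134 to 186 CPM. Not every marker of these lists was below WT. In PAR2dHep, Clec4g was above WT, and Clec4f, Lrat, Des and Kdr overlapped it. In the libraries labelled PAR2 KO, Des was above WT, and Acta2 and Stab2 overlapped it. The 6 cholangiocyte markers summed to 124 to 196 CPM in WT, 44.1 to 56.7 CPM in PAR2dHep and 68.7 to 117 CPM in the libraries labelled PAR2 KO. Spp1 made up most of each sum. Sox9 was at 1.82 to 2.41, 1.32 to 1.81 and 3.35 to 4.98 CPM in these groups. Of Krt7, Krt19, Epcam and Cftr, none lay wholly below WT in either other group. Of 6 kidney markers, 3 were at 0 in all libraries, and the sum, led by Lrp2, was 0.25 to 0.451, 0.63 to 3.38 and 5.12 to 9.98 CPM. The 6 intestine markers in the table, mostly Fabp2, summed to 157 to 326 CPM. In the library labelled PAR2 KO 1, Vil1 was 39.3 CPM and Krt20 24.4 CPM, against at most 1.28 and 1.18 CPM elsewhere. Cdx1 and Cdx2 were read only there, while Fabp2 and Lgals4 were within the range of the other libraries. Among the alternatives, that library was left out only by itself. Apart from kidney, every marker of the lists named here that is in the table was read in at least 1 library. Their part in the results that follow was not tested.

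Across all genes tested, edgeR called 24.3% in PAR2dHep minus WT (12.4% higher and 11.9% lower), 43% in the libraries labelled PAR2 KO minus WT (20.9% higher and 22.1% lower) and 9.62% between the libraries labelled PAR2 KO and PAR2dHep (4.23% and 5.39%), at an adjusted p under 0.05. Both comparisons with WT use the same 3 WT libraries. Among the 9 enzymes, 4 rose and 0 fell in PAR2dHep against WT (Gnmt, Ahcy, Cth and Pemt). Against WT, 2 rose (Gnmt and Cbs) and 1 fell (Mat1a) in the libraries labelled PAR2 KO. Between the libraries labelled PAR2 KO and PAR2dHep, 0 rose and 1 fell (Mat1a). Leaving out WT replicate 3 took the 4 rises to 2, while rises over all genes went from 1624 to 606. Leaving out PAR2dHep replicate 3 took the 2 rises to 6, while rises over all genes went from 2751 to 3180. Leaving out the library labelled PAR2 KO 2 took both counts of falls to 0, and falls over all genes went from 2902 to 2122 against WT and from 708 to 234 against PAR2dHep. The median log2 fold change of the 9 was 0.29, 0.42 and -0.20 in the 3 comparisons, beside medians of 0.02, -0.01 and -0.02 over all genes tested.

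**Figure D1:**
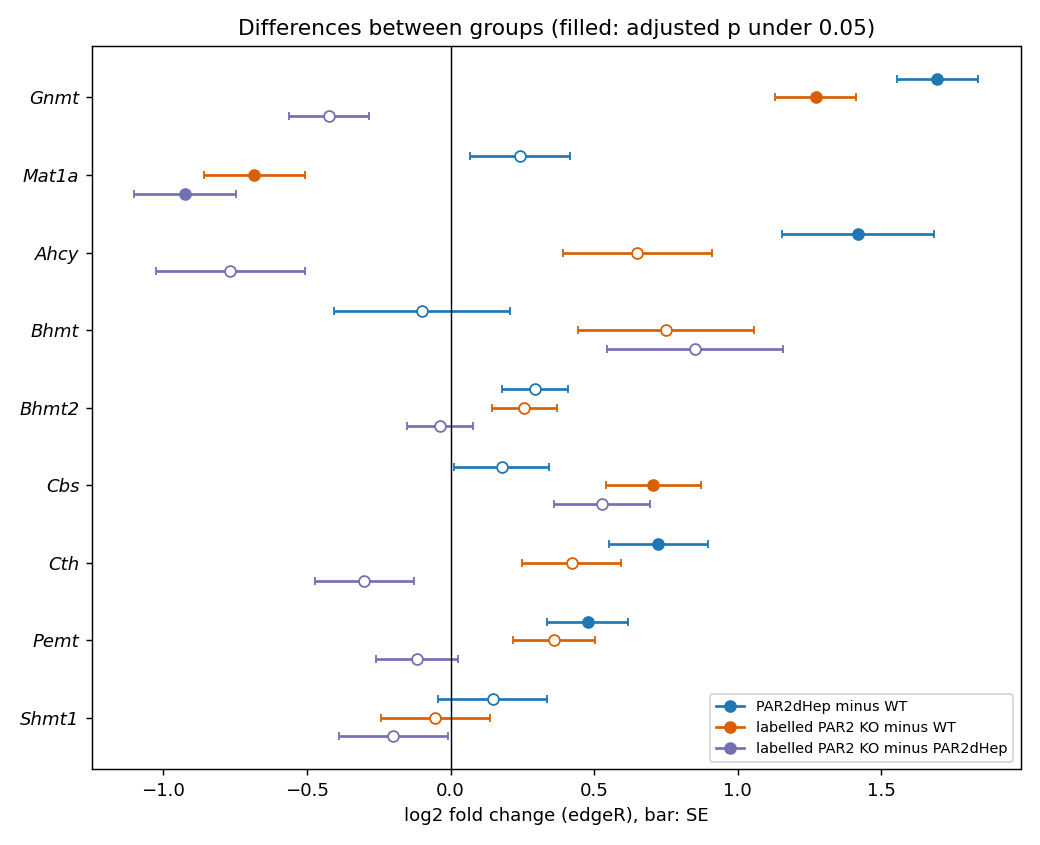
Log2 fold changes of the 9 enzymes (x axis) in the 3 comparisons, with bars for 1 SE and filled points for an adjusted p under 0.05 in edgeR. Gnmt lies to the right of 0 in both comparisons with WT (1.70 and 1.27), and Mat1a lies to the left in both comparisons of the libraries labelled PAR2 KO (-0.68 and -0.92).

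Libraries of the 2 groups did not overlap in CPM for 5 of the 9 enzymes in PAR2dHep against WT, where 43.4% of all genes did not overlap. The count was 8 of 9 in the libraries labelled PAR2 KO against WT, beside 66.2% of all genes, and 4 of 9 between the libraries labelled PAR2 KO and PAR2dHep, beside 26.5%. These counts are with TMM scaling. In reads per base scaled to a total of 1e+06 (TPM), without TMM factors, Bhmt2 and Cth overlapped WT in both groups. On that scale Pemt overlapped WT in the libraries labelled PAR2 KO, and Cbs overlapped between those libraries and PAR2dHep. Between the same groups, Ahcy, Pemt and Shmt1 overlapped in CPM but were separate in TPM, with the libraries labelled PAR2 KO lower. With library totals in place of TMM scaling, a choice made after the data were seen, the median of all genes moved by -0.16, -0.19 and -0.03 on the log2 scale. The share of calls that were rises then went from 50.9% to 27.7%, from 48.7% to 28.9% and from 44% to 37.4%. Gnmt and Ahcy remained called as higher in PAR2dHep and Gnmt as higher in the libraries labelled PAR2 KO, so the enzymes that rose numbered 2 and 1 on that scale. Other fold changes in the text are with TMM scaling. In whole liver, fewer cells of a type and less RNA per cell cannot be told apart.

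Gnmt, the glycine N-methyltransferase that disposes of surplus SAM, had the largest change of the set. Its level was 297, 333 and 262 CPM in the WT libraries, 938, 880.4 and 1072 CPM in PAR2dHep, and 757, 761 and 637 CPM in the libraries labelled PAR2 KO. All 3 groups were separate from each other, with PAR2dHep highest and WT lowest. The rise was 3.24-fold in PAR2dHep (log2 fold change 1.70, SE 0.142, edgeR adjusted p = 0.00019). It was 2.42-fold in the libraries labelled PAR2 KO (log2 fold change 1.27, SE 0.141, edgeR adjusted p = 0.000329). Both calls held under all 18 alternatives, with adjusted p up to 0.00212 for the first. The difference between the libraries labelled PAR2 KO and PAR2dHep, -0.42 with a 95% interval from -0.70 to -0.15, did not pass after adjustment in edgeR (adjusted p = 0.0829), although the CPM of the libraries did not overlap.

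Mat1a, which encodes the SAM synthetase of adult hepatocytes, was the member with the most mRNA per length in WT. Its level was 3558, 4193 and 3675 CPM in WT and 4051, 4719 and 4738 CPM in PAR2dHep, ranges that overlap. It was 2635, 1955 and 2525 CPM in the libraries labelled PAR2 KO, below every library of both other groups. The fall was 1.61-fold against WT (log2 fold change -0.68, SE 0.176, edgeR adjusted p = 0.0124) and 1.90-fold against PAR2dHep (-0.92, SE 0.177, adjusted p = 0.0143). The first call was lost without WT replicate 2 (edgeR adjusted p = 0.0516) or without the library labelled PAR2 KO 2 (0.0571). The second was lost without the library labelled PAR2 KO 2 (0.0652) or PAR2 KO 3 (0.0592) and with those 2 groups alone in the fit (0.0508). Between PAR2dHep and WT the difference was 0.24 (95% interval -0.10 to 0.59, edgeR adjusted p = 0.342).

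Against Mat1a, Gnmt mRNA per length stood at a ratio of 0.243 ± 0.0195 in WT, 0.668 ± 0.0764 in PAR2dHep and 0.962 ± 0.221 in the libraries labelled PAR2 KO (SD, n = 3), on the scale of TPM, reads per base scaled to a total of 1e+06. The 3 groups were separate: the WT libraries gave 0.221 to 0.26, PAR2dHep 0.58 to 0.72 and the libraries labelled PAR2 KO 0.784 to 1.21. In the library labelled PAR2 KO 2 the ratio was above 1. The pair was chosen after the values had been seen and was not tested.

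Pemt, whose enzyme makes phosphatidylcholine with 3 methyl groups from SAM, was nearly even in WT at 243, 254 and 252 CPM. It was 283, 334 and 427 CPM in PAR2dHep and 318, 311 and 333 CPM in the libraries labelled PAR2 KO. Every library of both other groups was above the WT libraries in CPM. In TPM this held for PAR2dHep (681 to 800, against 635 to 668 in WT) but not for the libraries labelled PAR2 KO (632 to 664). The rise was 1.39-fold in PAR2dHep (log2 fold change 0.48, SE 0.141, edgeR adjusted p = 0.0366). This call was the least stable of the set: it was lost under 9 of 18 alternatives, among them leaving out any 1 WT library (edgeR adjusted p from 0.108 to 0.113), PAR2dHep replicate 3 (0.0578), or the library labelled PAR2 KO 2 (0.0559) or PAR2 KO 3 (0.0596). In the libraries labelled PAR2 KO the difference from WT was 0.36 (95% interval 0.08 to 0.64) and did not pass in edgeR (adjusted p = 0.0642), but passed under 5 alternatives.

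Ahcy encodes the hydrolase that removes S-adenosylhomocysteine, a product that inhibits methyltransferases. Its level in WT was 536, 524 and 417 CPM. PAR2dHep had 748, 1529 and 1669 CPM, and the libraries labelled PAR2 KO had 795, 724 and 800.2 CPM. In CPM, PAR2dHep replicate 1 was at the level of the libraries labelled PAR2 KO, and PAR2dHep replicates 2 and 3 were well above it. In TPM, PAR2dHep replicate 1 (592) was above the libraries labelled PAR2 KO (483 to 544). Ahcy rose 2.67-fold in PAR2dHep (log2 fold change 1.42, SE 0.264, edgeR adjusted p = 0.00586), and this call held under all 18 alternatives with adjusted p up to 0.0353. In the libraries labelled PAR2 KO the difference from WT, 0.65 (95% interval 0.14 to 1.16), missed the threshold in edgeR (adjusted p = 0.0685). It passed without PAR2dHep replicate 1 (0.00343) and without PAR2dHep replicate 3 (0.0484), and with only WT and the libraries labelled PAR2 KO in the fit (0.00153). Against PAR2dHep the difference was -0.77 (95% interval -1.28 to -0.26, edgeR adjusted p = 0.092), which passed without PAR2dHep replicate 1 (-1.05, adjusted p = 0.00326). Of the 50-base words in Ahcy transcripts, 68.7% also occur in other annotated transcripts, led by Gm4737 and Gm9826, so Ahcy counts are uncertain to the extent that reads were shared.

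Bhmt, the betaine-dependent enzyme that returns a methyl group to homocysteine, was the most variable member within a group. WT libraries had 1938, 2065 and 1791 CPM and PAR2dHep libraries 1994, 903 and 2510.3 CPM. PAR2dHep replicate 2 was the lowest of the 9 libraries, and the other two PAR2dHep libraries were within or above the WT range. That is the library with the pancreatic and muscle markers. The libraries labelled PAR2 KO had 2997, 3337 and 3417 CPM, above all others. The log2 difference from WT, 0.75 (SE 0.307, 95% interval 0.15 to 1.35), did not pass in edgeR (adjusted p = 0.0735). It passed without PAR2dHep replicate 2 (0.00307) or replicate 3 (0.0385), without both libraries that held pancreatic transcripts (0.0122) and with only WT and the libraries labelled PAR2 KO in the fit (0.000383). Against PAR2dHep the difference was 0.85 (95% interval 0.25 to 1.45, edgeR adjusted p = 0.108), and it passed without PAR2dHep replicate 3 (1.17, adjusted p = 0.0282). Between PAR2dHep and WT it was -0.10 (95% interval -0.70 to 0.50, edgeR adjusted p = 0.837), and without both libraries that held pancreatic transcripts it was 0.22. Other annotated transcripts, led by Gm5096 and Bhmt-ps1, share 25.3% of the 50-base words of Bhmt, so its counts are uncertain too.

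Bhmt2, the neighbouring gene whose enzyme uses S-methylmethionine, stayed within a narrow band. It had 203, 216 and 203 CPM in WT, 245, 223 and 296 CPM in PAR2dHep, and 257, 249 and 238 CPM in the libraries labelled PAR2 KO. All 6 libraries of the last 2 groups were above WT in CPM. In TPM the groups overlapped, at 212 to 223 in WT, 191 to 235 in PAR2dHep and 187 to 214 in the libraries labelled PAR2 KO. The log2 differences from WT were 0.29 (95% interval 0.07 to 0.52, edgeR adjusted p = 0.0897) and 0.26 (0.03 to 0.48, adjusted p = 0.0955). The first passed without PAR2dHep replicate 2 (adjusted p = 0.0321), and the second without PAR2dHep replicate 3 (0.0239). Per length, Bhmt mRNA stood at 9.39 ± 0.433 times Bhmt2 in WT, 6.96 ± 2.49 times in PAR2dHep and 13.3 ± 1.37 times in the libraries labelled PAR2 KO (SD, n = 3). The ratio was 4.09 in PAR2dHep replicate 2, the lowest of the 9 libraries, and 11.8 to 14.5 in the libraries labelled PAR2 KO.

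Cbs, the first enzyme of the path from homocysteine to cysteine, had 355, 343 and 329 CPM in WT. PAR2dHep libraries had 506, 326 and 330.2 CPM, so only replicate 1 stood above WT. The libraries labelled PAR2 KO had 561, 575 and 539 CPM, all above every other library on this scale. In TPM, PAR2dHep replicate 1 (420) was above them (366 to 404). Cbs rose 1.63-fold in the libraries labelled PAR2 KO against WT (log2 fold change 0.71, SE 0.166, edgeR adjusted p = 0.00817). The call held when any 1 library was left out and was lost with library totals (adjusted p = 0.0758). Against PAR2dHep the difference, 0.53 (95% interval 0.20 to 0.85), did not pass in edgeR (adjusted p = 0.0739) and passed without PAR2dHep replicate 1 (0.77, adjusted p = 0.00209). Between PAR2dHep and WT it was 0.18 (95% interval -0.15 to 0.50, edgeR adjusted p = 0.459).

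Cth, whose enzyme cleaves cystathionine to release cysteine, had 264, 269 and 209 CPM in WT. PAR2dHep had 463, 304 and 457 CPM, and the libraries labelled PAR2 KO had 325, 313 and 356 CPM. Each of these 6 libraries was above the WT range in CPM. In TPM both groups overlapped WT (256 to 322), at 302 to 516 in PAR2dHep and 295 to 324 in the libraries labelled PAR2 KO. Cth rose 1.65-fold in PAR2dHep (log2 fold change 0.72, SE 0.173, edgeR adjusted p = 0.0159). The call was lost without WT replicate 3 (adjusted p = 0.0768) and with library totals (0.0537). The difference between the libraries labelled PAR2 KO and WT was 0.42 (95% interval 0.08 to 0.76) and did not pass in edgeR (adjusted p = 0.0733), but it passed without PAR2dHep replicate 2 (0.0198). Cth to Cbs mRNA per length was 0.968 ± 0.104 in WT, 1.45 ± 0.358 in PAR2dHep and 0.798 ± 0.0796 in the libraries labelled PAR2 KO (SD, n = 3). All 3 PAR2dHep libraries were above 1.2 in this ratio, and every other library was at or below 1.053.

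Shmt1, the cytosolic serine hydroxymethyltransferase, was the member with no call and no separation of groups in CPM. It had 161, 252 and 226 CPM in WT and 187, 229 and 292 CPM in PAR2dHep. The libraries labelled PAR2 KO had 212, 196 and 208 CPM. In TPM those libraries (161 to 179) were below PAR2dHep (182 to 221), and both groups overlapped WT (170 to 263). The log2 differences were 0.15 (95% interval -0.23 to 0.52), -0.05 (-0.42 to 0.32) and -0.20 (-0.57 to 0.17) in the 3 comparisons, with edgeR adjusted p of 0.605, 0.84 and 0.52.

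**Figure D2:**
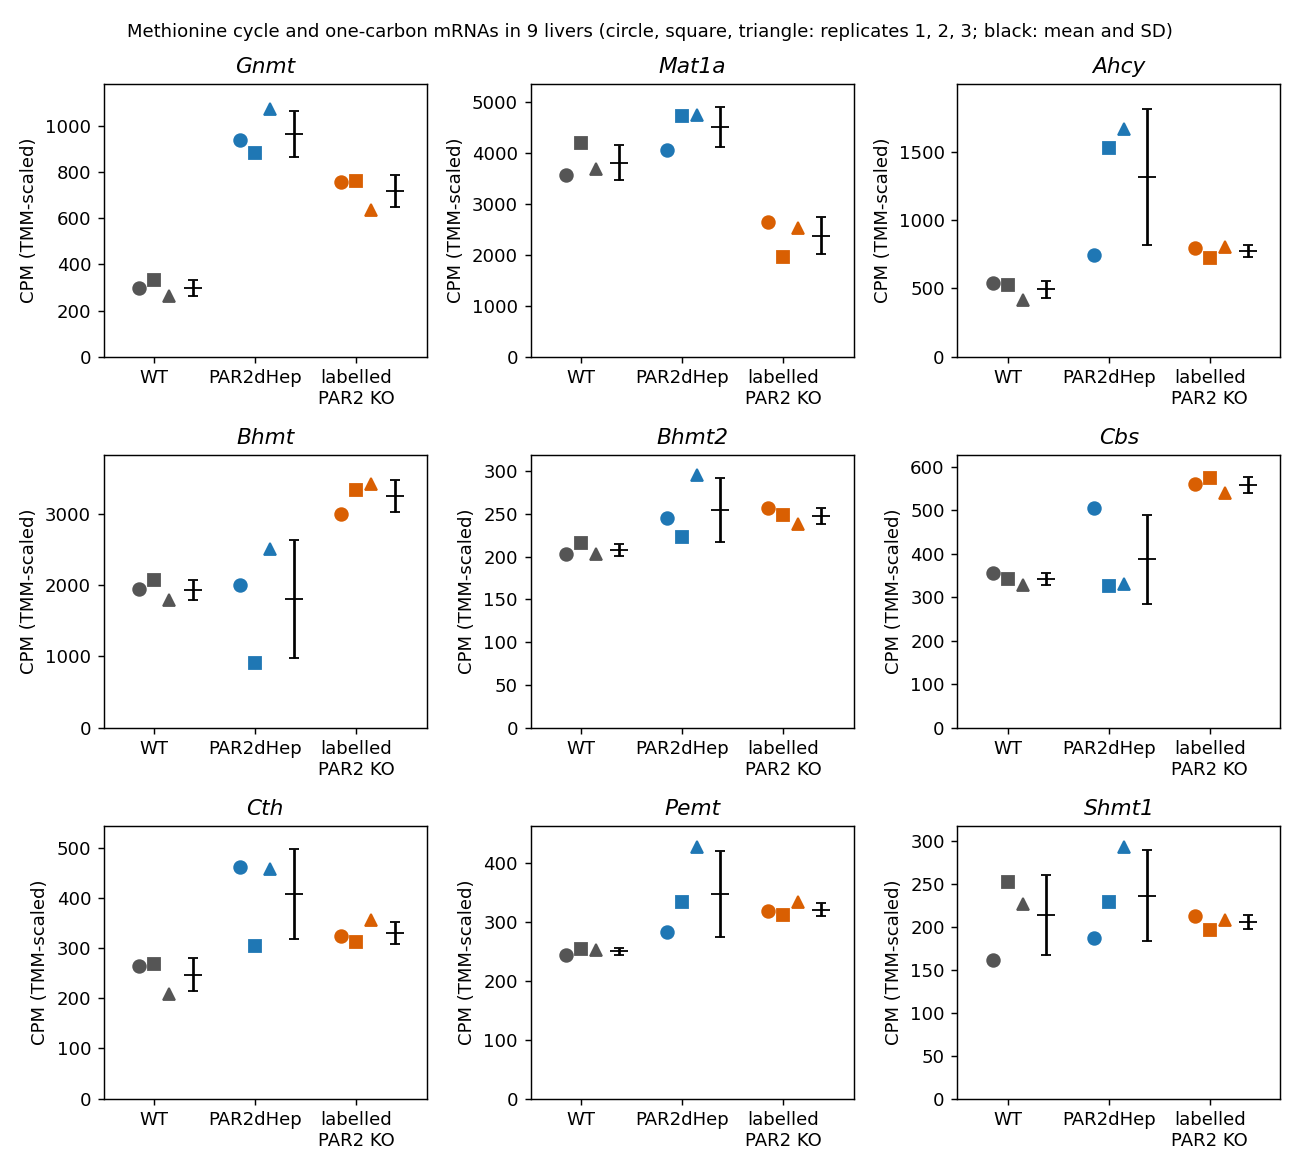
CPM with TMM-scaled library sizes (y axis, from 0) of each enzyme in the 3 groups (x axis), 1 symbol a library, with black bars for the mean and SD of 3 mice. Gnmt is separate in all 3 groups, Mat1a is lowest in the libraries labelled PAR2 KO, and the PAR2dHep libraries are spread widely for Ahcy (748 to 1669 CPM) and Bhmt (903 to 2510.3 CPM).

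The median spread of the 9 enzymes was widest among the PAR2dHep mice. The median coefficient of variation was 8.88% in WT, 22.1% in PAR2dHep and 5.52% in the libraries labelled PAR2 KO, beside 6.83%, 18.3% and 10.5% over all genes of at least 1 CPM. Within PAR2dHep it was 45.5% for Bhmt, 37.7% for Ahcy and 26.5% for Cbs, but 10.2% for Gnmt and 8.69% for Mat1a. Gnmt varied more in WT (12%), and Mat1a more in WT (8.88%) and in the libraries labelled PAR2 KO (15.4%). The 3 mice did not move in 1 direction across the set. Replicate 1 was low for Ahcy and high for Cbs, and replicate 2 was low for Bhmt and Cth. In CPM, replicate 3 was the highest of the 3 for the 7 members other than Cbs and Cth. This library had the lowest TMM factor (0.883), and in TPM it was the highest of the 3 only for Pemt and Shmt1.

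Per transcript length, Mat1a led in WT with 2588 ± 209 TPM (SD, n = 3; rank 45 among all genes), followed by Bhmt with 2033 ± 119 TPM. Pemt (653 ± 17.0 TPM) and Gnmt (628 ± 68.0 TPM) came next and overlapped, then Ahcy (422 ± 52.0 TPM). Cbs (309 ± 9.79 TPM), Cth (299 ± 37.1 TPM), Shmt1 (225 ± 48.7 TPM) and Bhmt2 (216 ± 5.63 TPM) were lowest, and each of these overlapped the next. In PAR2dHep Mat1a still led (2494 ± 168 TPM), and Gnmt (1660 ± 152 TPM) came to the level of Bhmt (1537 ± 655 TPM), which it overlapped. In the libraries labelled PAR2 KO Bhmt led (2653 ± 118 TPM), apart from Mat1a (1251 ± 201 TPM) and Gnmt (1180 ± 145 TPM), which overlapped each other. Shmt1 and Bhmt2 held the 2 lowest ranks in all 3 groups.

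The 9 mRNAs together came to 7050 to 7881 TPM in WT and 7673 to 8923 TPM in PAR2dHep. In the libraries labelled PAR2 KO they came to 7194 to 7540 TPM. In CPM the sums were 7363 to 8448, 9415 to 11793 and 8420 to 9053. PAR2dHep was above both other groups in CPM but overlapped WT in TPM. The make-up of the sum also differed. Mat1a supplied 35.1% ± 1.32 of the summed TPM in WT, 29.8% ± 4.08 in PAR2dHep and 17.1% ± 2.40 in the libraries labelled PAR2 KO (SD, n = 3). Gnmt went from 8.50% ± 0.481 in WT to 19.7% ± 0.928 in PAR2dHep and 16.1% ± 1.82 in the libraries labelled PAR2 KO, and its 3 WT libraries were below all others. For Bhmt the shares were 27.6% ± 0.647, 17.9% ± 6.66 and 36.3% ± 2.52. Ahcy had 5.72% ± 0.624, 10.8% ± 3.80 and 7.03% ± 0.271. Pemt kept nearly the same share in each group, 8.88%, 8.72% and 8.88%.

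**Figure D3:**
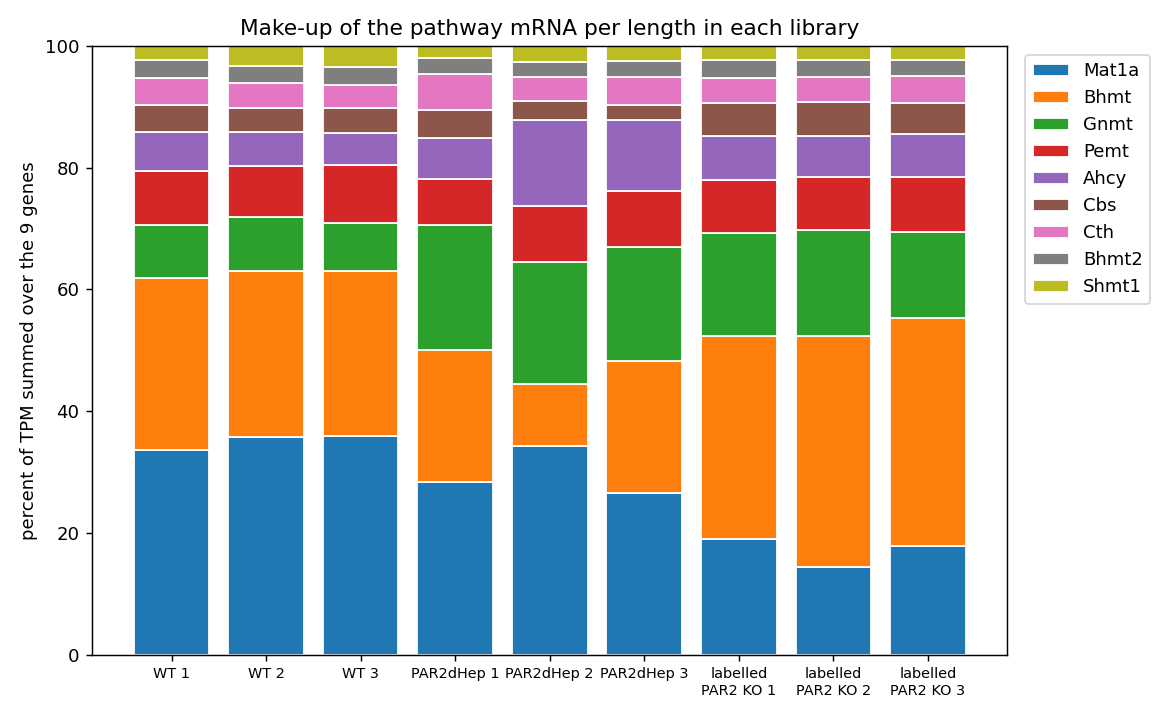
Share of each enzyme in the TPM summed over the 9 genes (y axis, percent) in each library (x axis). The Gnmt band is wider in all 6 PAR2dHep libraries and libraries labelled PAR2 KO (14.02 to 20.46%) than in WT (7.95 to 8.84%), and the Mat1a band is narrowest in the libraries labelled PAR2 KO (14.4 to 18.9%).

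Other genes of the pathway were counted in 5 lists, with 92 genes in the table and 88 tested. The lists were chosen with earlier results of these data known, so their called shares are descriptions only. In PAR2dHep against WT 27 rose and 13 fell (45.5% called, beside 24.3% of all genes). In the libraries labelled PAR2 KO against WT 24 rose and 16 fell (45.5%, beside 43%), and between the libraries labelled PAR2 KO and PAR2dHep 7 rose and 6 fell (14.8%, beside 9.62%). With library totals the first 2 counts became 18 rises and 17 falls, and 17 rises and 23 falls. Rises in PAR2dHep went down to 13 without WT replicate 3 and to 17 without WT replicate 1 or 2, and that of falls to 6 without WT replicate 2 and 8 without WT replicate 1. Falls in the second comparison went to 10 without the library labelled PAR2 KO 2, and the third comparison ranged from 3 rises and 3 falls without that library to 16 and 11 without PAR2dHep replicate 3. The medians of the 88 genes were 0.11, 0.09 and -0.03 on the log2 scale.

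Among 20 tested genes of methyl group supply and use, 5 rose and 2 fell in PAR2dHep, and 3 rose and 5 fell in the libraries labelled PAR2 KO against WT. These are 35% and 40% of the list, beside 24.3% and 43% of all genes. Nnmt, which methylates nicotinamide with SAM, rose in both: 59.4 ± 12.4 CPM in WT, 148 ± 28.4 CPM in PAR2dHep (log2 fold change 1.32) and 115 ± 15.3 CPM in the libraries labelled PAR2 KO (0.96), with edgeR adjusted p of 0.00185 and 0.00324. Inmt, an N-methyltransferase of indoleamines, rose in PAR2dHep (1.52, edgeR adjusted p = 0.00566; 383 ± 101 CPM in WT and 1100 ± 361 CPM in PAR2dHep). Mat2a, the SAM synthetase of most tissues other than adult liver, had 93.3, 86.5 and 90.7 CPM in WT. It had 63.5, 75.1 and 75.4 CPM in PAR2dHep, and 82.9, 84.9 and 91.6 CPM in the libraries labelled PAR2 KO. Mat2a fell in PAR2dHep (log2 fold change -0.34, edgeR adjusted p = 0.0288), a call lost when any 1 WT library was left out (adjusted p up to 0.103). Tpmt, the thiopurine methyltransferase, rose in the libraries labelled PAR2 KO against WT (1.25, edgeR adjusted p = 0.00527), whereas Hnmt (-1.27), As3mt (-1.39) and Gatm (-1.83) fell (adjusted p of 0.00119, 0.00135 and 0.00198).

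Of 23 folate genes, 6 rose and 1 fell in PAR2dHep and 6 rose and 3 fell in the libraries labelled PAR2 KO against WT, 30.4% and 39.1% of the list beside 24.3% and 43% of all genes. Shmt2, the mitochondrial relative of Shmt1, had 130 ± 7.24 CPM in WT, 208 ± 50.9 CPM in PAR2dHep and 237 ± 2.49 CPM in the libraries labelled PAR2 KO. It rose in both comparisons (log2 fold changes 0.68 and 0.87, edgeR adjusted p of 0.0122 and 0.00215), and the first call was lost without WT replicate 3 (0.0626). Ftcd, which feeds carbon from histidine into folate, rose by 0.65 and 0.61 (edgeR adjusted p of 0.00749 and 0.00485). Mthfd1l, a mitochondrial enzyme that makes formate, fell: it had 9.84, 10.5 and 11.7 CPM in WT, 1.41, 4.06 and 2.16 CPM in PAR2dHep, and 4.93, 4.75 and 4.91 CPM in the libraries labelled PAR2 KO. Its log2 fold changes were -2.08 (edgeR adjusted p = 0.00243) and -1.13 (0.0142), and the second call was lost without WT replicate 3 or the library labelled PAR2 KO 2 (adjusted p up to 0.0532). Fpgs, which traps folate in the cell as polyglutamate, rose in PAR2dHep (0.80, edgeR adjusted p = 0.0329) and in the libraries labelled PAR2 KO (1.09, adjusted p = 0.00505), and the first call was lost under 8 of 18 alternatives, among them leaving out any 1 WT library (adjusted p up to 0.118). The mitochondrial folate carrier Slc25a32 fell in the libraries labelled PAR2 KO against WT (-1.08, edgeR adjusted p = 0.00313).

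Among 19 choline and betaine genes, 6 rose and 4 fell in PAR2dHep and 6 rose and 6 fell in the libraries labelled PAR2 KO against WT. The called shares were 52.6% and 63.2%, beside 24.3% and 43% of all genes. Sardh, the mitochondrial dehydrogenase of sarcosine, the product of GNMT, had 579 ± 72.9 CPM in WT, 1081 ± 246 CPM in PAR2dHep and 1082 ± 58.7 CPM in the libraries labelled PAR2 KO. It rose by 0.90 in both (edgeR adjusted p of 0.00819 and 0.00413). Pipox, a peroxisomal oxidase that also takes sarcosine, rose in PAR2dHep (0.69, edgeR adjusted p = 0.00463) and in the libraries labelled PAR2 KO (0.42, adjusted p = 0.0194). The second call was lost under 5 of 18 alternatives, including leaving out any 1 WT library or the library labelled PAR2 KO 3 (adjusted p up to 0.081). Etnk2, an ethanolamine kinase, rose in both (0.92 and 0.79, edgeR adjusted p of 0.00867 and 0.00872). Falls against WT in the libraries labelled PAR2 KO included Pcyt1a, the rate-setting enzyme of phosphatidylcholine synthesis from choline (-0.66, edgeR adjusted p = 0.00915), the ethanolamine kinase Etnk1 (-0.83, 0.00379) and Cept1, which completes both phospholipids (-0.54, 0.00345). Etnk1 and Cept1 also fell in PAR2dHep (-0.58 and -0.39, edgeR adjusted p of 0.0315 and 0.0243). Each of these 2 calls was lost under 7 of 18 alternatives, including without any 1 WT library and without PAR2dHep replicate 1 or 3 (adjusted p up to 0.106 and 0.0882).

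Downstream of Cth, 5 of 14 cysteine, sulfur and glutathione genes rose and 4 fell in PAR2dHep, and 4 rose and 2 fell in the libraries labelled PAR2 KO against WT. That is 64.3% and 42.9% called, beside 24.3% and 43% of all genes. Csad, which makes hypotaurine on the way to taurine, had 120, 72.0 and 123 CPM in WT and 114, 164 and 109 CPM in the libraries labelled PAR2 KO, but 18.0, 25.2 and 17.6 CPM in PAR2dHep. All 3 PAR2dHep libraries were far below the other 6. It fell 5.17-fold in PAR2dHep against WT (log2 fold change -2.37, SE 0.251, edgeR adjusted p = 0.000564) and was 6.37-fold higher in the libraries labelled PAR2 KO than in PAR2dHep (2.67, SE 0.254, adjusted p = 0.000629). Both calls held under all 18 alternatives. Got1, an aspartate aminotransferase that also acts on cysteine sulfinate, showed the opposite order: 118, 166 and 107 CPM in WT, 294, 349.6 and 306 CPM in PAR2dHep, and 120.5, 135 and 124 CPM in the libraries labelled PAR2 KO. It rose by 1.28 in PAR2dHep against WT and was lower by -1.32 in the libraries labelled PAR2 KO than in PAR2dHep (edgeR adjusted p of 0.00109 and 0.00209).

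Cdo1, which oxidises cysteine to the substrate of Csad, rose in the libraries labelled PAR2 KO (821 ± 30.6 CPM in WT, 1330.3 ± 96.4 CPM, log2 fold change 0.70, edgeR adjusted p = 0.00518). It also rose in PAR2dHep (0.46, edgeR adjusted p = 0.0486), a call lost under 11 of 18 alternatives, among them leaving out any 1 WT library or any 1 library labelled PAR2 KO. The sulfurtransferases Tst (1.20 in PAR2dHep and 1.19 in the libraries labelled PAR2 KO) and Mpst (0.89 and 1.22) rose in both, with edgeR adjusted p of 0.00152 and 0.000705 for Tst and 0.0163 and 0.00223 for Mpst. The Mpst call in PAR2dHep was lost when any 1 WT library was left out (adjusted p up to 0.0686). Gclc, the rate-limiting subunit of glutathione synthesis, and Gss, the glutathione synthetase, fell in PAR2dHep (log2 fold changes -1.09 and -0.65, edgeR adjusted p of 0.00494 and 0.00384). Gclm, the other subunit of the Gclc enzyme, was not called there (-0.14, adjusted p = 0.335). The cystine importer gene Slc7a11 was barely read, with 22, 31 and 15 reads in WT, 3, 4 and 0 in PAR2dHep and 0, 2 and 0 in the libraries labelled PAR2 KO. Papss2, which activates sulfate, rose in PAR2dHep (1.34, edgeR adjusted p = 0.00926), a call lost without both libraries that held pancreatic transcripts (0.0566).

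Of 12 serine and glycine genes, 5 rose and 2 fell in PAR2dHep, and 5 rose and 0 fell in the libraries labelled PAR2 KO against WT, or 58.3% and 41.7% of the list beside 24.3% and 43% of all genes. Agxt, which makes glycine from glyoxylate, had 112, 133 and 103 CPM in WT, 380.5, 266 and 265 CPM in PAR2dHep, and 274, 269 and 261 CPM in the libraries labelled PAR2 KO. It rose by 1.39 and 1.21 (edgeR adjusted p of 0.000771 and 0.000625). Gcat, which links threonine breakdown to glycine, rose by 1.27 and 0.90 (edgeR adjusted p of 0.000392 and 0.00077), and Grhpr, a glyoxylate reductase, by 0.66 and 1.06 (0.00807 and 0.00054). The falls in PAR2dHep were Psat1, of serine synthesis, at 2.25 ± 0.0563 CPM in WT and 0.672 ± 0.364 CPM in PAR2dHep (-1.73, edgeR adjusted p = 0.00813), and the transporter Slc1a4 (-1.48, adjusted p = 0.0117), whose call was lost without WT replicate 2 (0.0527).

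**Figure D4:**
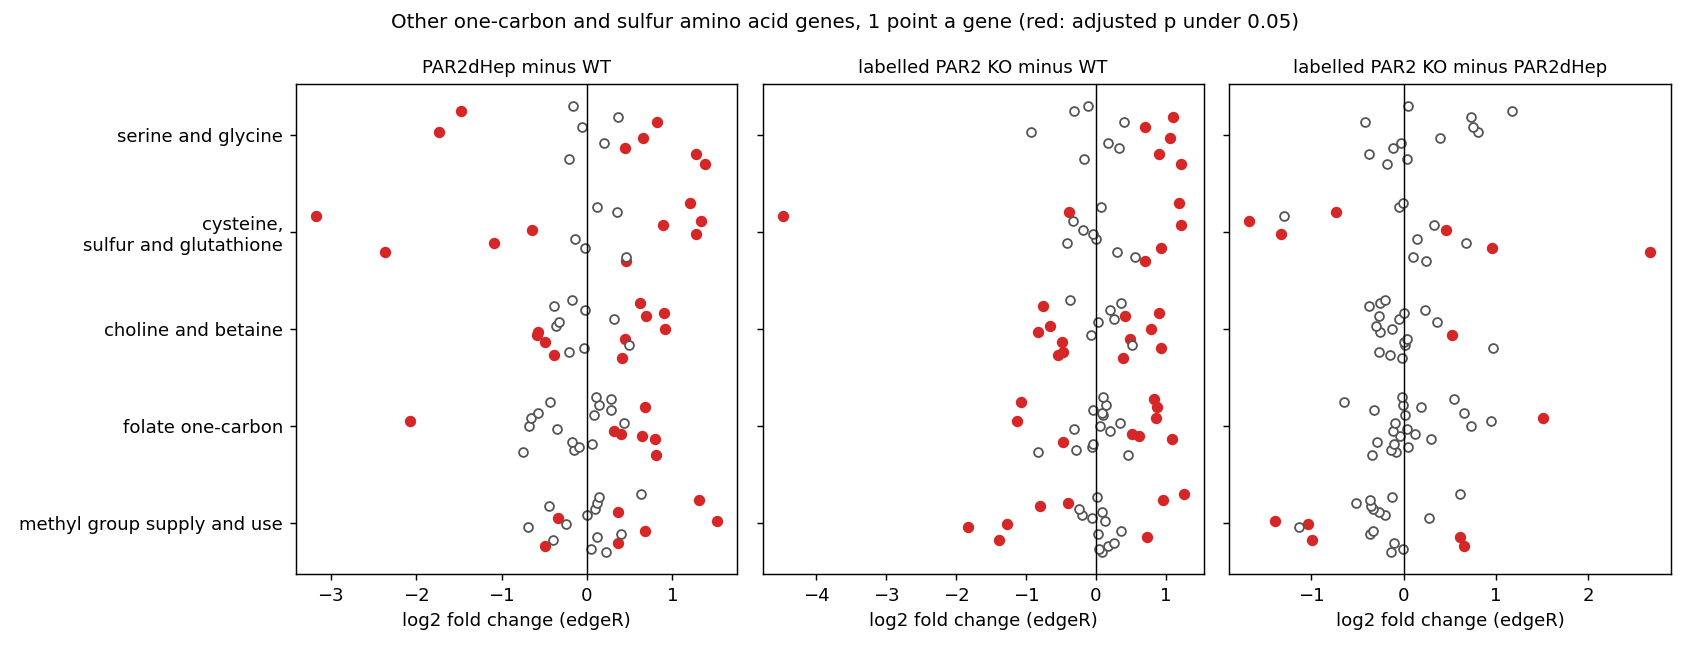
Log2 fold changes (x axis) of the 88 other pathway genes tested, 1 point a gene, in 5 lists (y axis) and 3 comparisons, with red for an adjusted p under 0.05 in edgeR. The points farthest left in both comparisons with WT are Slc7a11, which had few reads, and the point farthest right between the libraries labelled PAR2 KO and PAR2dHep is Csad (2.67).

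Because Bhmt and Bhmt2 share a chromosome with the targeted gene, their values stand beside those of genes around F2rl1. Of 61 tested genes within 5 Mb, 6 rose and 5 fell in PAR2dHep against WT (18%, beside 24.3% of all genes). In the libraries labelled PAR2 KO, 8 rose and 18 fell against WT (42.6%, beside 43%), and 1 rose and 9 fell against PAR2dHep (16.4%, beside 9.62%). Within 2 Mb, 20.8%, 54.2% and 33.3% of 24 genes were called in the 3 comparisons. In the second, of the libraries labelled PAR2 KO against WT, 3 rose and 10 fell. The 2 genes next to the pair are Jmy, an actin regulator, and Dmgdh, the dehydrogenase of dimethylglycine, which BHMT produces. Jmy had log2 differences of -0.12, -0.29 and -0.17 with no call. Dmgdh had 460, 442 and 424 CPM in WT, 622, 498 and 692 CPM in PAR2dHep, and 657, 563 and 640.4 CPM in the libraries labelled PAR2 KO. It rose by 0.45 (edgeR adjusted p = 0.0411) and 0.49 (0.0184) against WT, but the first call was lost under 12 of 18 alternatives and the second under 5, including without WT replicate 2 or 3 in both.

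**Figure D5:**
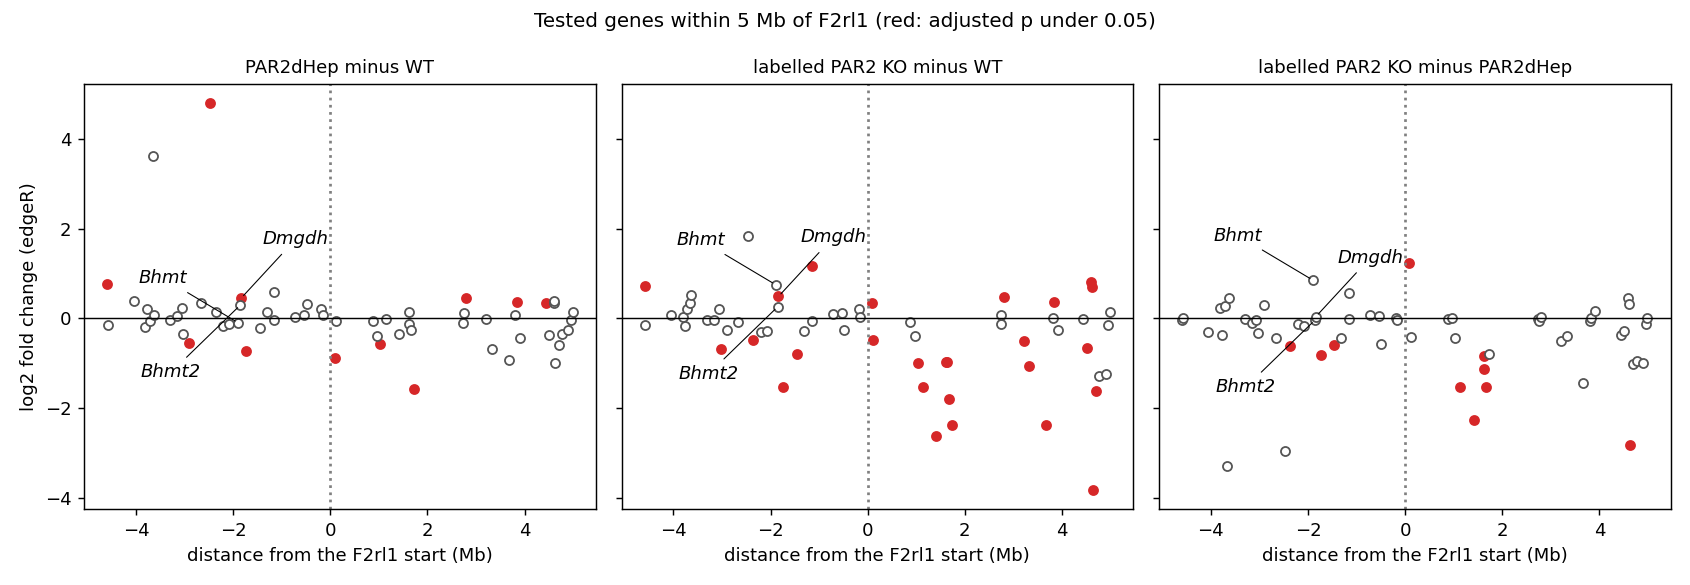
Log2 fold changes (y axis) of tested genes by distance of their start from that of F2rl1 (x axis, Mb) in the 3 comparisons, with red for an adjusted p under 0.05 in edgeR and F2rl1 itself left out. Bhmt, Bhmt2 and Dmgdh lie together to the left of F2rl1, and the points of Bhmt and Bhmt2 are open in all 3 comparisons.

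The genes within 5 Mb of F2rl1 with the smallest p lay outside the pathway. F2r, which encodes the related receptor PAR1 and starts 0.09 Mb away, fell in PAR2dHep against WT (-0.89, edgeR adjusted p = 0.000711) and was higher in the libraries labelled PAR2 KO than in PAR2dHep (1.23, adjusted p = 0.000293). Its rise against WT in the libraries labelled PAR2 KO (0.34, edgeR adjusted p = 0.0197) was lost under 5 of 18 alternatives, including without WT replicate 2 or 3 or the library labelled PAR2 KO 2 or 3. Gcnt4 and Nsa2 fell in the libraries labelled PAR2 KO against WT (-2.63 and -0.98, edgeR adjusted p of 0.000171 and 0.000148). Arsb, the arylsulfatase B gene, starts 1.74 Mb from F2rl1, on the same side as the Bhmt pair. It had 59.5 ± 1.22 CPM in WT, 36.0 ± 5.08 CPM in PAR2dHep and 20.5 ± 1.6 CPM in the libraries labelled PAR2 KO (SD, n = 3). Arsb fell in PAR2dHep (-0.72, edgeR adjusted p = 0.0036) and in the libraries labelled PAR2 KO against WT (-1.53, adjusted p = 0.000101) and against PAR2dHep (-0.81, adjusted p = 0.00551), and all 3 calls held under the 18 alternatives.

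Across the 9 libraries, the gene closest in pattern to each member was found by the root mean square difference of log2 CPM after centring, over 11832 genes of at least 1 CPM. For Gnmt it was 0610008F07Rik at 0.145, where the median gene stood at 0.778 and the nearest other member, Ahcy, at 0.397. Ngef was nearest to Ahcy (0.146), Ctdsp2 to Mat1a (0.0825), Hist1h2bc to Bhmt (0.122) and Nelf to Cbs (0.0843). Sema4g was nearest to Cth (0.118), Masp2 to Pemt (0.0589), Nfyc to Bhmt2 (0.0527) and Ppif to Shmt1 (0.118). The closest pair within the set was Bhmt2 and Pemt at 0.129. These distances share libraries and scaling and carry no test.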

How the data were processed

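Poly(A) RNA from 9 livers was sequenced with a stranded kit, per the labels' protocols. Per the submitters' processing notes, reads were checked with FastQC, aligned to mm10 with HISAT2 2.1.0 and compared with DESeq2, whose output was not analysed here. The deposited values are, per the file headers, raw counts per gene from featureCounts 1.6.2 with strand setting 2, and the header's command names no option for reads that map to several places. The deposited Length column, bases per gene and a unit of other kind, served for TPM only. The 9 members, the 5 lists and the tests were chosen with earlier results of these data known.

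Genes passed filterByExpr (minimum count 10, minimum total 15). The quasi-likelihood model of edgeR 4.0.16 (R 4.3.3) was fitted once over the 9 libraries, with group means and TMM scaling. A gene was called at a Benjamini-Hochberg adjusted p under 0.05 over all 13141 genes. The SE is the log2 fold change divided by the square root of F. Intervals given as 95% span 1.96 SE on either side, a normal approximation that makes them narrower than the edgeR test. For Jmy in the libraries labelled PAR2 KO against WT, the interval of -0.566 to -0.0063 left out 0. The unadjusted edgeR p there was 0.074. An exact permutation test of 3 against 3 cannot go below 0.1. Labels do not name a batch, and nothing beyond the labels shows how independent the mice were. The p-values set a group difference against a spread between these animals that is estimated over all 3 groups. The PAR2dHep animals thus also bear on p-values for the libraries labelled PAR2 KO against WT. Named genes were the 9 members, F2rl1, up to 3 called genes with the smallest p per list, direction and comparison whose groups did not overlap, the nearest genes in pattern, the flanks of the Bhmt pair and the 3 smallest p near F2rl1; of these a subset, chosen after their values were seen, is printed. Shared 50-base words were counted in the GENCODE M21 transcripts.

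Alternatives were median-of-ratios size factors, DESeq2 1.42.0, limma 3.58.1 voom with quality weights, no filter, a filter of 1 CPM in 3 or more libraries, the 2 compared groups alone, the replicate number as a block, each library left out in turn, and WT replicate 1 with PAR2dHep replicate 2 left out. Library totals without TMM factors were added after the data were seen.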

Additional observations from a re-analysis of the deposited data

How the results depend on the processing

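With 3 mice a group, 1 library can move a call. Over 18 alternatives and 9 enzymes, 150, 135 and 151 of 162 values per comparison kept their direction and side of the threshold; 11, 3 and 3 lost a call, 1, 24 and 8 gained one, and 0 of the called enzymes reversed. The gains were mostly in the libraries labelled PAR2 KO against WT, where 6 enzymes rose with DESeq2, 7 with voom, 7 with only the 2 groups in the fit, 4 without both libraries that held pancreatic transcripts and 1 with library totals. Under the same 5 fits 22.3%, 30.4%, 28.5%, 18.4% and 11.6% of all genes rose, beside 20.9% with the fit reported. In PAR2dHep against WT 2 enzymes rose with library totals. Between the libraries labelled PAR2 KO and PAR2dHep, 2 rose and 3 fell with DESeq2, 1 rose with voom and 0 fell with only the 2 groups. The cause was not tested.

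Leaving out 1 library gave 2 to 5 rises among the enzymes in PAR2dHep against WT, 2 to 6 rises and 0 to 1 falls in the libraries labelled PAR2 KO against WT, and 0 to 1 rises and 0 to 2 falls between the libraries labelled PAR2 KO and PAR2dHep. Pathway genes ranged from 13 to 27 rises and 6 to 17 falls, 10 to 20 falls in the second comparison, and 3 to 16 rises and 3 to 11 falls in the third. All genes ranged from 606 to 2060 rises and 753 to 1965 falls, 1794 to 3180 rises, and 175 to 1313 rises and 211 to 1496 falls. Of all genes and pathway genes, the lowest counts came without WT replicate 3, WT replicate 2 or the libraries labelled PAR2 KO 2 or 3, and the highest without PAR2dHep replicate 2 or 3.

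In the third comparison, all genes gave 891 rises and 1177 falls with DESeq2, 358 and 444 with voom, 152 and 190 with only the 2 groups, and 230 and 265 without the libraries that held pancreatic transcripts. Pathway genes there gave 14 rises and 10 falls with DESeq2, 3 rises with voom, 1 rise and 3 falls with only the 2 groups, 3 rises without the libraries with pancreatic transcripts and 4 with library totals. With library totals 778 and 1526 genes rose in the first and second comparisons. Within 2 Mb of F2rl1, 33.3% of genes were called in the third comparison.

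The same replicate numbers in each group did not pair the mice: deviations of the 9 same-number pairs correlated at -0.332 to 0.046, and 0 of 9 libraries correlated best with their own number. A replicate block left the enzymes' counts at 4 rises and 0 falls, 2 rises and 1 fall, and 0 rises and 1 fall.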
